A study of Mus musculus with 31 samples.

Results

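Cell death through mitochondria is controlled by the BCL2 family, and 10 of its genes were followed here through cisplatin injury of the mouse kidney: Bcl2, Bcl2l1, Mcl1, Bak1, Bok, Bid, Bad, Bik, Bmf and Bcl2l11. They were taken by gene symbol from the deposited expression table, which holds 55487 genes, each symbol matched 1 row, and all 10 were among the 19268 genes with enough reads to test. Bax, Bbc3 and Pmaip1, the 3 family members best known as genes that p53 switches on, were kept apart and serve as a comparison. Libraries were made from kidney tissue of B6-background males, which were either wild type at Nbl1 (WT) or carried the Nbl1 genotype written HET. Mice received cisplatin, a DNA-damaging platinum compound, or its buffer control PBS over 4 weeks beginning at 8 weeks of age, and kidneys were taken 3 days after treatment. The age at collection is stated as 11 weeks, which does not add up with the other times given. Neither the dose nor the type of allele is stated. There were 8 libraries from WT mice on PBS, 8 from WT mice on cisplatin, 7 from HET mice on PBS and 8 from HET mice on cisplatin, each from an animal with its own number and so counted as 1 animal.

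BCL2 proteins share short sequence stretches called BCL2 homology (BH) domains and meet on the outer mitochondrial membrane. Bak1 and Bax, and by some accounts Bok, open pores in that membrane, which lets cytochrome c out and starts the caspases. Bcl2, BCL-XL (from Bcl2l1) and Mcl1 hold the pore formers in check. The BH3-only proteins, here Bid, Bad, Bik, Bmf and Bim (from Bcl2l11), carry stress signals to both sides. In the kidney, cisplatin is taken up by proximal tubule cells, where this route is a textbook way of dying.

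Library totals, in units of 1e6 counts, were 29.85 to 37.3 (WT) and 29.23 to 36.7 (HET) under PBS and 24.65 to 28.86 (WT) and 26.87 to 31.92 (HET) under cisplatin. Nbl1 was measured at 6.37 ± 1.3 CPM (SD, n = 8) in WT PBS, 2.72 ± 1.7 (SD, n = 7) in HET PBS, 20.6 ± 4.8 (SD, n = 8) in WT cisplatin and 7.34 ± 4.7 (SD, n = 8) in HET cisplatin. CPM here means counts scaled to a total of 1e6 after TMM scaling, which sets libraries to one another by their typical gene. Nbl1 did not separate the genotypes fully. The library labelled WT PBS 6 (3.71 CPM) lay within the HET PBS range, with HET PBS 2 and 3 (3.75 and 4.2 CPM) above it, and the library labelled WT cisplatin 6 (10.7 CPM) lay within the HET cisplatin range, with HET cisplatin 7 and 8 (10.8 and 13.9 CPM) above it. Without those 2 WT libraries no HET library reached the lowest WT library of its treatment. The libraries labelled HET PBS 1 and 6 and HET cisplatin 3 and 4 held 0.106, 0.434, 1.08 and 0.861 CPM, under the other HET libraries of their treatment. WT PBS 6 and these 4 HET libraries are called the 5 libraries set apart by Nbl1. They were picked by their Nbl1 level in these same data. Results that change without them are given so, also with WT cisplatin 6 left out, an alternative chosen after seeing the data. The kidney label was borne out by markers of tubule, podocyte and endothelium in all 31 libraries. Summed proximal tubule markers (10 genes such as Lrp2) fell from 30500 to 33900 CPM in WT PBS to 1460 to 6840 in WT cisplatin, and from 30400 to 34800 to 1290 to 6140 in HET, and every one of the 10 passed the test as lower in both genotypes. In bulk tissue, fewer cells of a type and less RNA per cell cannot be told apart.

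In wild-type kidneys, cisplatin raised Bcl2l1, Bak1, Mcl1, Bcl2l11 and Bmf, lowered Bid, and gave no call for Bcl2, Bok, Bad and Bik. That is 6 of 10 members called, where 63.2% of all tested genes were called, 6469 higher and 5705 lower (edgeR's quasi-likelihood test, Benjamini-Hochberg adjusted p under 0.05 over all tested genes). In HET kidneys Bcl2l1, Bak1, Mcl1 and Bcl2l11 rose and Bid fell, 5 of 10 members, where 59.0% of all tested genes were called, 5981 higher and 5393 lower. The members' share of calls was therefore close to that of genes at large in both genotypes. Their median log2 fold change was 0.30 in WT and 0.05 in HET, beside 0.06 in both for all tested genes. All values are relative to the typical gene, and the choice of that reference matters here, as given further on. Both antagonists of death and promoters of death were among the genes that rose.

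**Figure D1:**
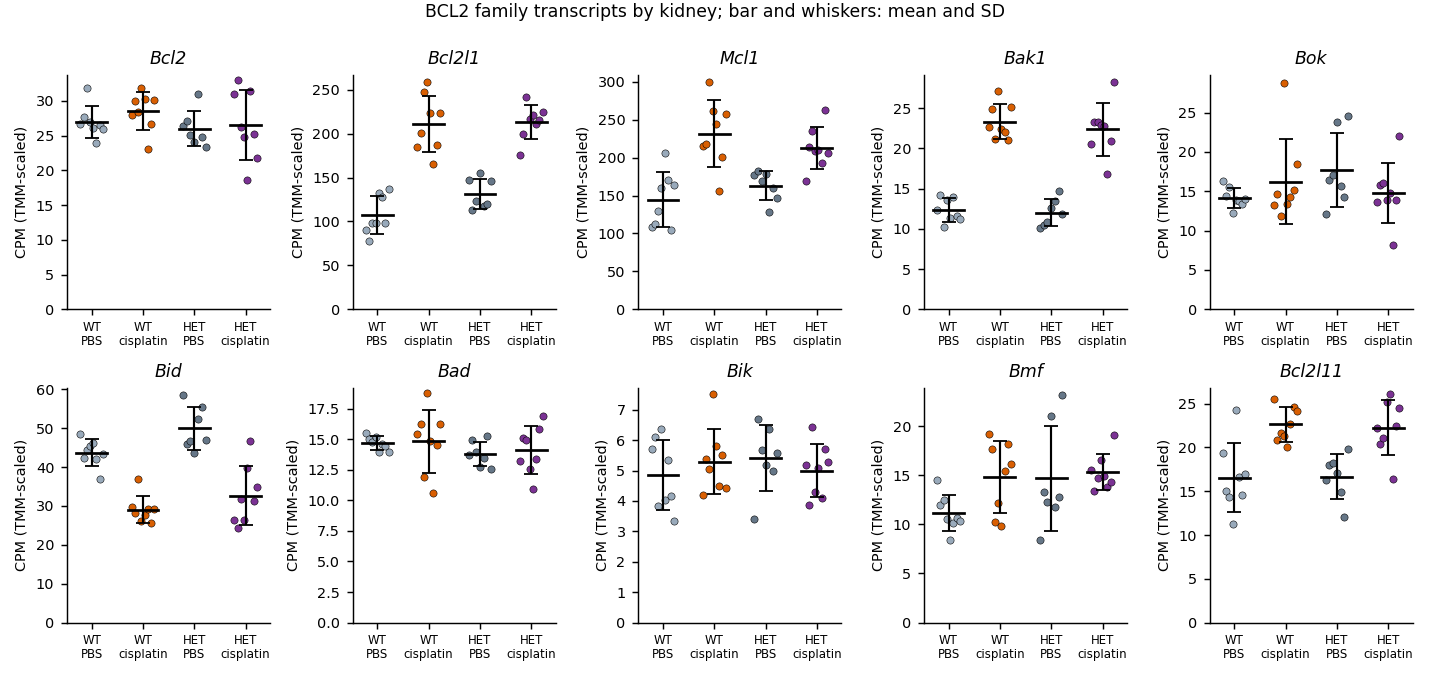
CPM (TMM-scaled, linear axis from 0) of the 10 members in each kidney of the 4 groups; each point is 1 library, the bar is the group mean and the whiskers 1 SD. The cisplatin points of Bcl2l1 and Bak1 lie above all PBS points of the same genotype, most Bid points lie below, and the groups of Bcl2, Bad and Bik overlap.

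Among the anti-death genes the clearest rise was that of Bcl2l1, which encodes BCL-XL (chr2:152780668-152831728, minus strand, GRCm38). In WT, Bcl2l1 ran from 77.8 to 137 CPM with a median of 98.0 under PBS, and from 165 to 258 with a median of 212 under cisplatin. In HET it ran from 113 to 156 (median 124) under PBS and from 176 to 241 (median 216) under cisplatin. All 8 cisplatin kidneys of each genotype lay above every PBS kidney. An upward separation like this was shown by 14.4% of all tested genes in WT and 11.0% in HET. Counting both directions, the shares were 31.8% and 26.0%. The log2 fold change was 0.97 (SE 0.11, edgeR adjusted p = 2.1e-09) in WT, a 1.97-fold rise, and 0.70 (SE 0.11, edgeR adjusted p = 2.38e-06) in HET, a 1.62-fold rise. Within WT PBS, 3 libraries (replicates 5, 6 and 8) were high at 128 to 137 CPM. The other 5 stayed between 77.8 and 98.1. The 3 high ones belong to the run of animal numbers that holds all HET cisplatin mice, as does replicate 7 at 98.1 CPM. That run holds 4 of 8 WT PBS, 6 of 8 WT cisplatin and 4 of 7 HET PBS mice. With that run taken alone, the log2 fold change of Bcl2l1 was 0.81 in WT and 0.66 in HET. Whether the PBS level of Bcl2l1 depends on the run was not tested.

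Mcl1, a short-lived guard against death whose protein turns over quickly (chr3:95658788-95663176, plus strand), moved in the same direction with more scatter. Its WT kidneys ran from 104 to 206 CPM (median 145) under PBS and from 156 to 300 (median 231) under cisplatin. In HET the ranges were 129 to 182 (median 169) and 170 to 262 (median 209). The groups overlapped: 6 of 8 WT and 7 of 8 HET cisplatin kidneys lay above every PBS kidney of their genotype, and the library WT cisplatin 6, at 156 CPM, was the low one. The log2 fold change of Mcl1 was 0.68 (SE 0.13, edgeR adjusted p = 2.44e-05) in WT and 0.38 (SE 0.13, edgeR adjusted p = 0.0137) in HET. Without the 5 libraries set apart by Nbl1, the HET value of Mcl1 was 0.38 with an edgeR adjusted p of 0.0562, which no longer passes; with WT cisplatin 6 left out too, it was 0.38 with an edgeR adjusted p of 0.0395.

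Bcl2, the founding member of the family (chr1:106538178-106714274, minus strand), gave no call. It ran from 23.9 to 31.8 CPM (median 26.6) in WT PBS and from 23.1 to 31.9 (median 29.2) in WT cisplatin. In HET the ranges were 23.3 to 31 (median 25.1) and 18.6 to 33.1 (median 25.7). The groups overlapped almost fully, and the log2 fold change was 0.08 (95% interval -0.10 to 0.26, edgeR adjusted p = 0.441) in WT and 0.03 (95% interval -0.16 to 0.22, edgeR adjusted p = 0.793) in HET. The deposited Bcl2 count was a whole number in 32.3% of libraries and that of Bcl2l11 in 41.9%, against 100% for the other 8 members, and the step that gave the fractions is not stated. Bcl2 shares 558 exon bases with an antisense gene, D630008O14Rik, which was at most 0.0694 CPM in any library.

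Of the pore formers, Bak1 (chr17:27019810-27029009, minus strand), which sits on the mitochondrial membrane in wait of a signal, rose with cisplatin in both genotypes. Bak1 ran from 10.2 to 14.2 CPM (median 12.0) in WT PBS and from 21.0 to 27.1 (median 22.5) in WT cisplatin. In HET it ran from 10.1 to 14.7 (median 11.8) and from 16.8 to 28.3 (median 22.8). Groups did not overlap in either genotype, an upward separation shown by 14.4% of all tested genes in WT and 11.0% in HET. Bak1 thus had a log2 fold change of 0.92 (SE 0.09, edgeR adjusted p = 2.14e-10) in WT and 0.90 (SE 0.09, edgeR adjusted p = 1.19e-09) in HET, 1.89-fold and 1.86-fold. Bak1 shares 437 exon bases with Ggnbp1 on the opposite strand, and the strand setting of the counting is not given, so reads from those bases cannot be told apart. Ggnbp1 itself went the other way, from 12.6 ± 1.4 CPM to 6.51 ± 1.5 (SD, n = 8 each) in WT (log2 fold change -0.95, SE 0.12, edgeR adjusted p = 2.77e-08).

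Bok, a pore former that does not need the usual activators and is kept low by protein turnover (chr1:93685660-93695764, plus strand), gave no call. It ran from 12.2 to 16.3 CPM (median 13.9) in WT PBS and from 11.9 to 28.8 (median 14.4) in WT cisplatin, and in HET from 12.1 to 24.6 (median 16.4) and from 8.20 to 22.1 (median 14.3). Single libraries spread it: WT cisplatin 4 at 28.8, HET PBS 4 and 7 at 23.7 and 24.6, and HET cisplatin 6 at 8.20. In log2 terms the change was 0.19 (95% interval -0.15 to 0.53, edgeR adjusted p = 0.316) in WT and -0.26 (95% interval -0.61 to 0.09, edgeR adjusted p = 0.191) in HET.

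Bid was the member that fell (chr6:120891930-120916853, minus strand). Its protein links surface death receptors to mitochondria once caspase-8 has cut it. Bid ran from 36.8 to 48.5 CPM (median 43.9) in WT PBS and from 25.5 to 36.9 (median 28.7) in WT cisplatin. In HET it ran from 43.6 to 58.7 (median 46.9) and from 24.3 to 46.7 (median 31.5). In each genotype 7 of 8 cisplatin kidneys lay below every PBS kidney, the exceptions being WT cisplatin 3 at 36.9 CPM and HET cisplatin 6 at 46.7. On the log2 scale Bid changed by -0.59 (SE 0.10, edgeR adjusted p = 7.13e-06) in WT and -0.61 (SE 0.10, edgeR adjusted p = 6.7e-06) in HET. This was a fall relative to the typical gene: in TPM, which scales by transcript length and by the whole library, Bid was 14.7 ± 1.7 in WT PBS and 14.1 ± 1.2 in WT cisplatin (SD, n = 8 each), and limma on log2(TPM + 1) gave -0.05 with an adjusted p of 0.651 in WT and -0.15 with an adjusted p of 0.163 in HET. Bid shares 628 exon bases with Bcl2l13 on the opposite strand, a family relative of the mitochondrial membrane that also fell (log2 fold change -0.40, SE 0.07, edgeR adjusted p = 4.01e-06 in WT).

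Bcl2l11 encodes Bim, a BH3-only protein that binds all of the anti-death proteins (chr2:128126038-128162547, plus strand). It ran from 11.3 to 24.3 CPM (median 15.8) in WT PBS and from 20.1 to 25.6 (mean 22.6) in WT cisplatin, and in HET from 12.1 to 19.9 (median 17.1) and from 16.4 to 26.1 (median 22.3). Overlap was set by WT PBS 5, at 24.3 CPM, above which only 2 of 8 WT cisplatin kidneys lay, and in HET by cisplatin 6, at 16.4, with the other 7 above every PBS kidney. The log2 fold change was 0.45 (SE 0.11, edgeR adjusted p = 0.000926) in WT and 0.42 (SE 0.12, edgeR adjusted p = 0.00279) in HET. In the run of animal numbers that holds all HET cisplatin mice, taken alone, the WT value was 0.30 with an edgeR adjusted p of 0.0789. Without the 5 libraries set apart by Nbl1, the HET value was 0.32 with an edgeR adjusted p of 0.0543, and with WT cisplatin 6 left out too, 0.32 with an edgeR adjusted p of 0.0584. These 3 values do not pass.

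Bmf, a BH3-only protein tied to the cytoskeleton (chr2:118528757-118549687, minus strand), was called higher in WT only. It ran from 8.42 to 14.6 CPM (median 10.6) in WT PBS and from 9.82 to 19.2 (median 15.8) in WT cisplatin, and 5 of 8 cisplatin kidneys lay above every PBS kidney. In HET the ranges were 8.45 to 23.2 (median 12.8) and 13.4 to 19.2 (median 14.9), and no cisplatin kidney lay above the highest PBS kidney. The HET PBS range was stretched by replicates 4 and 7, at 21.0 and 23.2 CPM, the same pair that was high in Bok. Bmf changed by 0.41 (log2, SE 0.16, edgeR adjusted p = 0.0265) in WT and 0.06 (SE 0.17, edgeR adjusted p = 0.775) in HET, and the difference between the genotypes was -0.35 (SE 0.23, edgeR adjusted p = 0.94). Leaving out WT PBS 5 or WT cisplatin 1, 2 or 7 moved the WT value of Bmf to between 0.35 and 0.38 and its edgeR adjusted p to between 0.0537 and 0.0644. Without the 5 libraries set apart by Nbl1 and WT cisplatin 6, the WT value of Bmf was 0.39 with an edgeR adjusted p of 0.0503.

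Bad and Bik, the remaining BH3-only genes, gave no call. Bad, which growth factor signalling keeps phosphorylated and inactive (chr19:6941861-6951899, plus strand), ran from 13.9 to 15.5 CPM (median 14.7) in WT PBS and from 10.6 to 18.8 (median 15.1) in WT cisplatin, and in HET from 12.6 to 15.3 (median 13.7) and from 10.9 to 16.9 (median 14.2). Its mean stayed while its spread widened in WT, from a coefficient of variation of 3.83% to 17.4%. The log2 fold change of Bad was 0.01 (95% interval -0.16 to 0.19, edgeR adjusted p = 0.897) in WT and 0.03 (95% interval -0.15 to 0.22, edgeR adjusted p = 0.785) in HET. Bad shares 524 exon bases with Gpr137 on the opposite strand, which stood at 17.6 ± 0.93 CPM in WT PBS and 17.3 ± 0.82 in WT cisplatin (SD, n = 8 each), so reads from those bases cannot be told apart for Bad either. Bik, a protein of the endoplasmic reticulum membrane (chr15:83526862-83544634, plus strand), was the lowest member by CPM and ran from 3.35 to 6.35 (median 4.77) in WT PBS, 4.21 to 7.52 (median 5.21) in WT cisplatin, 3.41 to 6.69 (median 5.59) in HET PBS and 3.87 to 6.44 (median 5.12) in HET cisplatin. The Bik groups overlapped, with a log2 fold change of 0.12 (95% interval -0.17 to 0.42, edgeR adjusted p = 0.478) in WT and -0.12 (95% interval -0.42 to 0.19, edgeR adjusted p = 0.519) in HET.

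The reference used for scaling changes how these values read. With library totals in place of TMM factors, the median log2 fold change of all tested genes was 0.45 in WT and 0.46 in HET, against 0.06 under TMM. On that scale 9 members were higher and 1, Bid, lower in WT, and 7 were higher and Bid lower in HET. Of all 19268 tested genes, 11831 were called higher and 2862 lower in WT, and 11992 higher and 2400 lower in HET. Bcl2 stood at 0.47 and 0.44, Bad at 0.41 and 0.44, and Bid at -0.20 (edgeR adjusted p = 0.0449) and -0.22 (edgeR adjusted p = 0.0337) in WT and HET. With limma on log2(TPM + 1), the median of all genes was 0.28 in WT and 0.29 in HET. There 9 members were higher and 0 lower in WT, and 8 were higher and 0 lower in HET. Of all tested genes, 12055 were higher and 2439 lower in WT, and 12321 higher and 1983 lower in HET. Bcl2l1, Mcl1, Bak1 and Bcl2l11 were called higher in both genotypes on all 3 scales. Bcl2 and Bad were called higher in both with library totals and with TPM, and not under TMM. Bik and Bok in HET changed sign from TMM to either of the other scales.

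**Figure D2:**
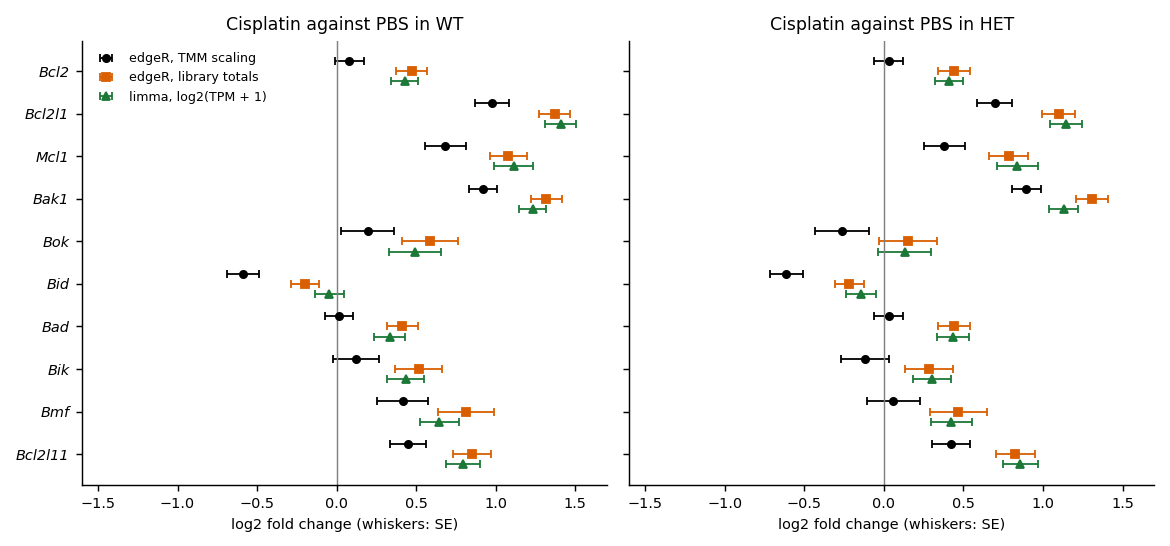
Log2 fold change (cisplatin against PBS) of each member in WT and HET under 3 scalings; points are estimates and whiskers are 1 SE. Library totals and TPM shift each member to the right of its TMM value; Bcl2l1, Mcl1, Bak1 and Bcl2l11 stay above 0 on each scale in both genotypes and Bid stays below it.

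Levels between genes can be compared only per length, for which the deposited TPM was used. In WT PBS kidneys Bcl2l1 (33.3 ± 6.5 TPM, SD, n = 8) and Mcl1 (27.3 ± 6.5) were highest, with ranges that overlapped. Bid (14.7 ± 1.7) and Bad (10.6 ± 0.97) followed, also with overlapping ranges, and then Bok (7.34 ± 0.94), whose range met neither neighbour's. Bik (4.17 ± 1.0), Bak1 (4.16 ± 0.50), Bcl2l11 (3.14 ± 0.62), Bcl2 (2.79 ± 0.41) and Bmf (1.86 ± 0.43) came last, each overlapping the next. Under cisplatin Bak1 moved from rank 7 to rank 5 in WT, at 11.1 ± 1.2 TPM (SD, n = 8), with a range that overlapped those of Bad (13.8 ± 2.5) above it and Bok (11.0 ± 3.5) below it. Bcl2l1 reached 89.1 TPM in both genotypes (SD 10 in WT and 6.5 in HET, n = 8 each), and in HET its range no longer met that of Mcl1 (54.9 ± 6.2).

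**Figure D3:**
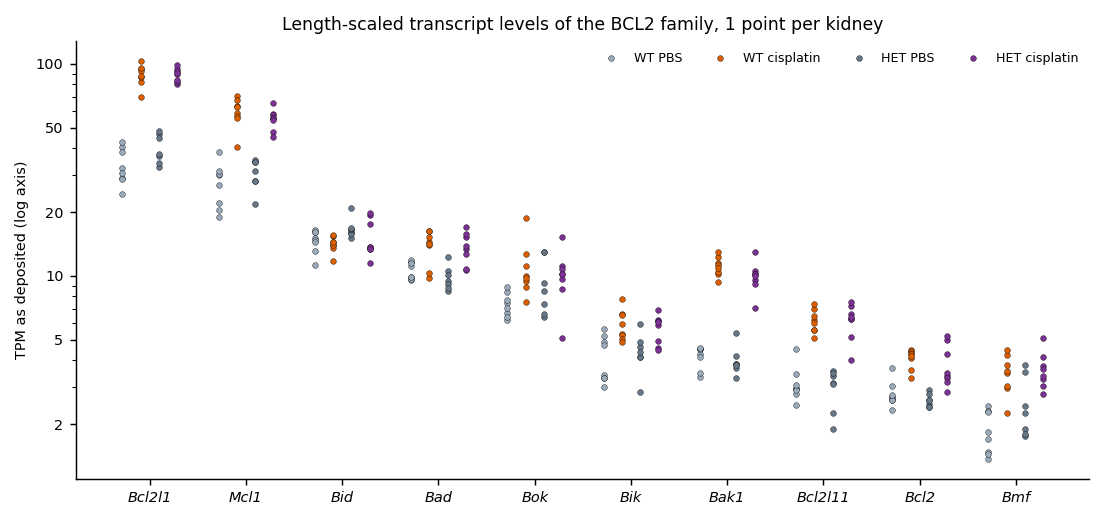
Deposited TPM (log axis) of the 10 members, ordered by their mean in WT PBS, 1 point per kidney. Bcl2l1 and Mcl1 lie highest in all 4 groups, and Bcl2 and Bmf lowest.

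Summed by role, the 3 anti-death transcripts held 63.3 ± 12 TPM in WT PBS and 153 ± 19 in WT cisplatin (SD, n = 8 each). Their HET sums were 73.1 ± 9.9 under PBS (SD, n = 7) and 148 ± 9.8 under cisplatin (SD, n = 8). The 2 pore formers went from 11.5 ± 1.1 to 22.1 ± 4.3 TPM in WT and from 13.2 ± 2.7 to 20.1 ± 4.4 in HET. For the 5 BH3-only transcripts the sums were 34.5 ± 3.1 and 43.5 ± 3.1 TPM in WT, and 36.5 ± 2.7 and 44.4 ± 3.7 in HET. The anti-death sums did not overlap between treatments in either genotype, while the pore-former sums in HET did. These sums are descriptions on the TPM scale, on which the typical gene also rose. They cover the 10 members only. Bax, Bbc3 and Pmaip1, which promote death and rose in both genotypes, are not in them, nor are other family genes such as Bcl2l2. The sums therefore do not weigh the sides of the whole family. Bax alone went from 14.2 ± 1.5 to 48.2 ± 5.5 CPM (SD, n = 8 each) in WT.

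The 4 promoters printed here belong to the 3 genes of the anti-death and BH3-only groups that rose in both genotypes and to Bid, which fell; each stretch is the 250 bases before a RefSeq start site of GRCm38.p6, read 5′ to 3′ on the gene's strand. Capitals mark matches to the motifs searched on both strands. Bcl2l1 (chr2:152831729-152831978, minus strand, the farthest upstream of its start sites in the table), Mcl1 (chr3:95658471-95658720, plus strand), Bcl2l11 (chr2:128125788-128126037, plus strand) and Bid (chr6:120916825-120917074, minus strand, of which 29 bases overlie an annotated exon) read as follows.
Bcl2l1: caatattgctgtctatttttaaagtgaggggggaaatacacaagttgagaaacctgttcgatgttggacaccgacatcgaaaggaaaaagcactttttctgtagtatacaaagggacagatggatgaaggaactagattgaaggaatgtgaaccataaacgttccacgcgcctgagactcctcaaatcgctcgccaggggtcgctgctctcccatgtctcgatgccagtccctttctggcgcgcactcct
Mcl1: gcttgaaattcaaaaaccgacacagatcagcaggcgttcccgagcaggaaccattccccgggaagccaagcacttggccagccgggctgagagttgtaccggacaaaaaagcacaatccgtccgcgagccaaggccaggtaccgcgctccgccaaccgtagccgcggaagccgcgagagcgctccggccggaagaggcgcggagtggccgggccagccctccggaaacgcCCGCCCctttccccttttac
Bcl2l11: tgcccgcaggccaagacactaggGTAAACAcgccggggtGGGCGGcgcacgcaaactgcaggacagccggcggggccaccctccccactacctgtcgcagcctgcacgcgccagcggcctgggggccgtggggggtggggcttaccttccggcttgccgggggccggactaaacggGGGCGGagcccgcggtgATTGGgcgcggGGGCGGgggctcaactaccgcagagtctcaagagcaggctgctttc
Bid: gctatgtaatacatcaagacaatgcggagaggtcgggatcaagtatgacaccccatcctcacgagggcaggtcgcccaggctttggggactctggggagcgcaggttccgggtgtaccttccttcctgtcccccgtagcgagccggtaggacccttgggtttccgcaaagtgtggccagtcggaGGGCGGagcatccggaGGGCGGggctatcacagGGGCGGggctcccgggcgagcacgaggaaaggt

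Those 250 bases of Bcl2l1 held no match to any motif searched, and Mcl1 held 1 GC box (GGGCGG) 20 bases upstream of its start site. In the Bcl2l11 promoter stood a FOXO motif (GTAAACA) at 227 bases, GC boxes at 211, 74 and 46 bases and a CCAAT motif at 57 bases upstream of the start. Bid carried GC boxes at 66, 50 and 33 bases. Of 32851 promoters in the table, 32.7% held a GC box, 33.8% a CCAAT motif and 3.17% the FOXO motif in the same 250 bases. Over the 15 promoters of the 9 members with an entry, 7 held a GC box, 5 a CCAAT motif, and 1 each the FOXO, NF-kB and p53 half-site motifs (the p53 half-site in 1 Bmf promoter, and in 7.13% of all promoters). The NF-kB motif stood 242 bases upstream of another Bcl2l1 start site, in a window wholly within annotated exon. Of all promoters, 3.9% held that motif. None of the 15 held the STAT motif TTCNNNGAA (7.02% of all promoters), the cyclic AMP response element TGACGTCA (1.55%), the AP-1 motif TGANTCA (6.75%), the E-box CACGTG (6.02%), the ETS motif CCGGAAGT (2.88%) or the CArG box (1.47%). A match is a description of letters and not a bound site. The window of Bak1 lies wholly in an annotated exon and is not printed, and Bik has no entry.

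Genotype left no call on the members. Of all tested genes, 0 were called lower in HET under either treatment. Nbl1 itself, lower in HET by mean CPM, therefore did not pass in these comparisons either. The lack of a call on a member is thus weak evidence that genotype leaves it unchanged. Under PBS, 0 of 10 members passed, as did 0% of all tested genes, although 968 genes had an unadjusted p under 0.05. These included 2 members, Bcl2l1 (log2 difference HET minus WT 0.29, SE 0.11, edgeR adjusted p = 0.778) and Bmf (0.40, SE 0.17, edgeR adjusted p = 0.887). Bcl2l1 was at 107 ± 22 CPM in WT PBS (SD, n = 8) and 132 ± 17 in HET PBS (SD, n = 7), with 3 of 7 HET kidneys above every WT kidney. Bmf was at 11.2 ± 1.9 CPM (SD, n = 8) and 14.7 ± 5.3 (SD, n = 7), with only replicates 4 and 7 above the WT range. Under cisplatin 0 of 10 members passed, beside 0.00519% of all tested genes, and none had an unadjusted p under 0.05; Bid was the nearest (0.17, SE 0.10, edgeR adjusted p = 0.891). DESeq2 also called no member in either comparison, and it called 5 genes of all those tested under PBS.

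The cisplatin responses of HET and WT were compared by the interaction, HET minus WT. It called 0 of 10 members and 0% of all tested genes by edgeR, and 0 genes by DESeq2. An unadjusted edgeR p under 0.05 was found for 1079 genes, none of them a member. Bok had the lowest value, -0.46 (95% interval -0.94 to 0.03, edgeR adjusted p = 0.921), followed by Bmf at -0.35, Mcl1 at -0.30 (95% interval -0.67 to 0.07, edgeR adjusted p = 0.939) and Bcl2l1 at -0.28 (95% interval -0.59 to 0.03, edgeR adjusted p = 0.933). Bak1 had -0.02 (95% interval -0.29 to 0.24) and Bid -0.03 (95% interval -0.32 to 0.27). So the intervals of Bok, Bmf, Mcl1 and Bcl2l1 still hold differences of some size. Those of Bak1 and Bid are centred near 0 but not much narrower than that of Bcl2l1. They still reach to -0.29 and -0.32. The call of Bmf in WT and not in HET is no evidence that its responses differ.

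Cisplatin kidneys differed widely in how much proximal tubule signal they kept, and in WT Bad was higher where less of it was left. The measure was the mean log2 CPM of the 10 proximal tubule markers, which ran from 5.31 to 8.42 in WT cisplatin and from 5.68 to 8.18 in HET cisplatin. Of 20 relations (10 members in each genotype, n = 8, two-sided exact permutation tests, adjusted over the 20), that of Bad in WT passed: Pearson r -0.96 (exact permutation p = 0.000496, adjusted p = 0.00992), Spearman rho -0.81 (exact permutation p = 0.0218, adjusted p = 0.332), and r -0.91 without the 2 kidneys farthest from the median. By ranks no relation passed the adjustment. In HET the value for Bad was -0.60 (exact permutation p = 0.116, adjusted p = 0.291; rho -0.38, p = 0.36) and -0.10 without the 2 farthest kidneys, so it rests on those 2 there. Leaving out WT cisplatin 3, 4 or 6 left no relation past the threshold. The exon bases that Bad shares with Gpr137 bear on this relation too, and their part was not tested.

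For Bak1 the Pearson r was -0.76 in WT (exact permutation p = 0.0239; rho -0.69, p = 0.0694) and -0.83 in HET (exact permutation p = 0.0126; rho -0.76, p = 0.0368), and -0.66 and -0.70 without the 2 farthest kidneys. Bok had -0.78 in WT (exact permutation p = 0.0228; rho -0.67, p = 0.0831) and -0.84 in HET (exact permutation p = 0.0142; rho -0.69, p = 0.0694), and -0.84 and -0.79 without the 2 farthest. All 4 had an adjusted p of 0.0796 for r and 0.332 for rho (exact permutation) and so missed the threshold. Bcl2 in WT had -0.81 (exact permutation p = 0.0189, adjusted p = 0.0796; rho -0.52, p = 0.197), which fell to -0.19 without the 2 farthest kidneys and so rests on them. Bcl2l1 and Mcl1, which rose with treatment, had r of -0.56 and -0.48 in WT and -0.01 and 0.08 in HET (exact permutation p of 0.152, 0.216, 0.979 and 0.853).

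**Figure D4:**
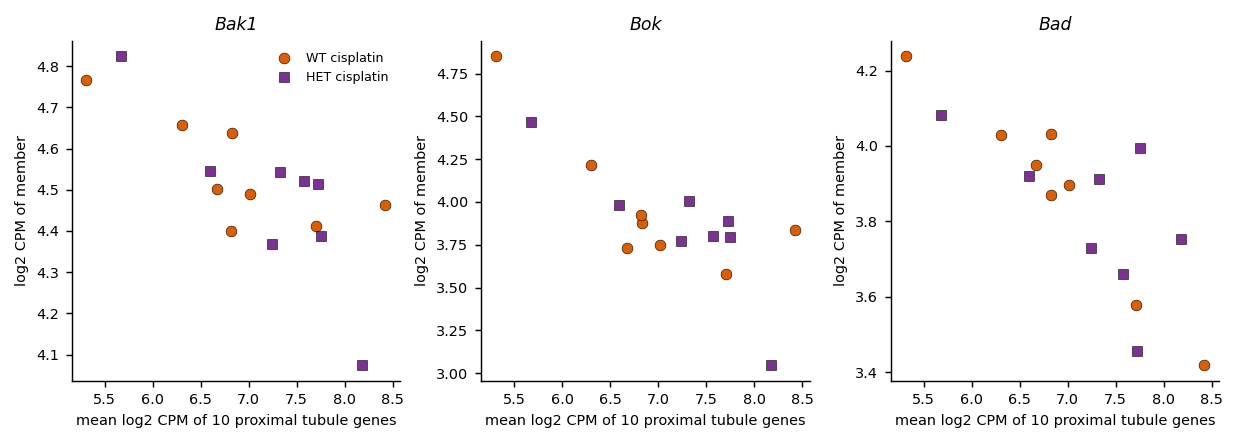
Log2 CPM of Bak1, Bok and Bad against the mean log2 CPM of 10 proximal tubule genes in the 8 WT (circles) and 8 HET (squares) cisplatin kidneys, axes not from 0. All 3 genes slope downwards, with WT cisplatin 4 at the far left and WT cisplatin 6 and HET cisplatin 6 at the far right.

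Other cell types also changed with treatment, and their part in the members' changes was not tested. All 7 injured tubule markers (such as Havcr1 and Lcn2) were called higher in both genotypes, and their summed CPM went from 514 to 778 in WT PBS to 6050 to 7750 in WT cisplatin, and from 642 to 820 to 3270 to 7770 in HET. Macrophage and monocyte markers went from 88.5 to 107 CPM to 102 to 241 in WT, with 5 of 7 higher and 1 lower, and from 90.8 to 120 to 43.3 to 170 in HET, with 4 of 7 higher and 1 lower. All 6 endothelial and all 3 distal convoluted tubule markers were lower in both genotypes, as were 3 of 4 of the thick ascending limb, the other one being higher in both. Collecting duct markers split into 3 higher and 2 lower of 7 in WT, podocyte markers into 1 and 2 of 4, and stromal markers into 3 and 1 of 5. Lymphocyte markers summed to 0.871 to 4.84 CPM and neutrophil markers to 2.76 to 23.1 over all libraries. Lymphocyte sums went from 2.36 to 4.84 CPM to 0.912 to 1.98 in WT, and from 2.29 to 4.36 to 0.871 to 2.12 in HET. Of 6 lymphocyte markers tested, 4 were lower in both genotypes. Of 5 neutrophil markers, 0 were called in WT and 4 were lower in HET. No marker was at 0 in all libraries; Pvalb, of the distal convoluted tubule, was at 0 in 7 of 8 WT and 3 of 8 HET cisplatin libraries.

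Members also varied together from kidney to kidney once group means were taken off (Pearson r over 31 libraries, which share depth and cell makeup; description only). Bcl2l1 and Mcl1 were the closest pair (r 0.75), followed by Bak1 and Bok (0.53) and Bok and Bmf (0.48), and the most opposed were Bok and Bid (-0.46) and Bcl2 and Bcl2l11 (-0.44). Of 13146 genes with a mean of at least 1 CPM, those most like Mcl1 were Hbegf (0.88) and Plk3 (0.87), those most like Bcl2l1 were Lrrc8a and Arg2 (0.84 each), and those most like Bok were Ktn1 (0.89) and Peak1 (0.83). Bak1 went most closely with Tuba1b (0.82) and Sf3a2 (0.76), Bid with Habp4 (0.82) and Elovl1 (0.81), Bad with Sh3bgrl2 (0.85) and Rab3d (0.82), and Bcl2 with Srgap3 (0.78) and Ajuba (0.77). The lowest values were those for Bmf with Abtb1 and Tcp11l2 (0.75 each), Bcl2l11 with Srsf4 and Ptpn22 (0.69 each) and Bik with Ints14 (0.70) and Efnb1 (0.64).

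Beside the members stood 75 tested genes of the same pathway in 7 lists, of which 29 were higher and 21 lower in WT and 28 higher and 21 lower in HET. The 50 of 75 called in WT stood beside 63.2% of all tested genes (33.6% higher, 29.6% lower), and the 49 of 75 in HET beside 59.0%, so these shares are near the background and the counts of the single lists are given as description. With library totals these counts became 54 and 7 in WT and 53 and 6 in HET. On that scale 11831 of all 19268 tested genes were higher and 2862 lower in WT, and 11992 higher and 2400 lower in HET. Directions near 0 thus depend on the scaling as they do for the members. The 3 genes that p53 switches on all rose by more than any of the 10 members on the log2 scale: Bbc3, which encodes PUMA, by 3.23 in WT and 3.32 in HET, Pmaip1 (NOXA) by 2.35 and 2.22, and the pore former Bax by 1.76 and 1.93. Of 10 other family genes tested, 3 were higher and 2 lower in each genotype: Bcl2l14 (0.79 in WT, 0.92 in HET) and Bcl2a1b (1.32 and 1.26, uncertain because the Bcl2a1 copies are nearly identical) were higher, and the mitophagy receptors Bnip3l (-0.48 and -0.53) and Bcl2l13 (-0.40 and -0.36) were lower.

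Downstream of the pore, 4 of 12 apoptosome and caspase genes were higher and 4 lower in each genotype. Apaf1, the scaffold of the apoptosome, was higher by 1.85 in WT and 1.97 in HET, while Cycs, which encodes cytochrome c (-1.16 and -1.06), and Aifm1 (-1.36 and -1.23) were lower. Of 10 inhibitors of apoptosis and their antagonists 6 were higher and 1 lower, among them Birc3 (1.38 and 1.33), Birc2 (1.05 and 0.95) and Septin4 (1.10 and 1.15), with Birc6 lower (-0.48 and -0.42). On the death receptor route that leads to Bid, 3 of 7 were higher and 1 lower: Tnfrsf10b, a TRAIL receptor (2.48 and 2.64), Tnfrsf1a (1.29 and 1.21) and Fas (1.29 and 1.18) rose while Ripk1 stood at -0.14 and -0.16. Bid, their mitochondrial link, was the member that fell. These directions depend on the scaling too. With library totals and with limma on log2(TPM + 1), all 7 genes of this route were higher in both genotypes, Ripk1 included. Most of all tested genes were called higher on those scales too. Limma gave no call for Bid.

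Of 12 membrane partners of BCL2 proteins, 1 was higher and 9 lower in each genotype, with Itpr3, a calcium channel that BCL2 proteins bind, at 1.90 and 1.66, Tmbim6 at -1.16 and -1.12, and Mtch2, a receptor for cut Bid, at -0.55 and -0.46. This direction depends on the scaling: with library totals the list had 4 higher and 4 lower in WT and 6 higher and 2 lower in HET, and with limma on log2(TPM + 1) 6 and 3 in WT and 7 and 2 in HET. Of 21 factors that act on BCL2 proteins or their genes, 9 were higher and 4 lower in WT and 8 and 4 in HET. Stat3, which is known to act on the Bcl2l1 and Mcl1 genes, was higher by 1.23 and 0.94, Fbxw7, which marks Mcl1 protein for breakdown, by 0.85 and 0.92, and Akt1, a kinase that phosphorylates Bad, by 0.60 and 0.55. Dynll2, the dynein light chain that holds Bmf, was lower at -1.15 and -1.02.

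**Figure D5:**
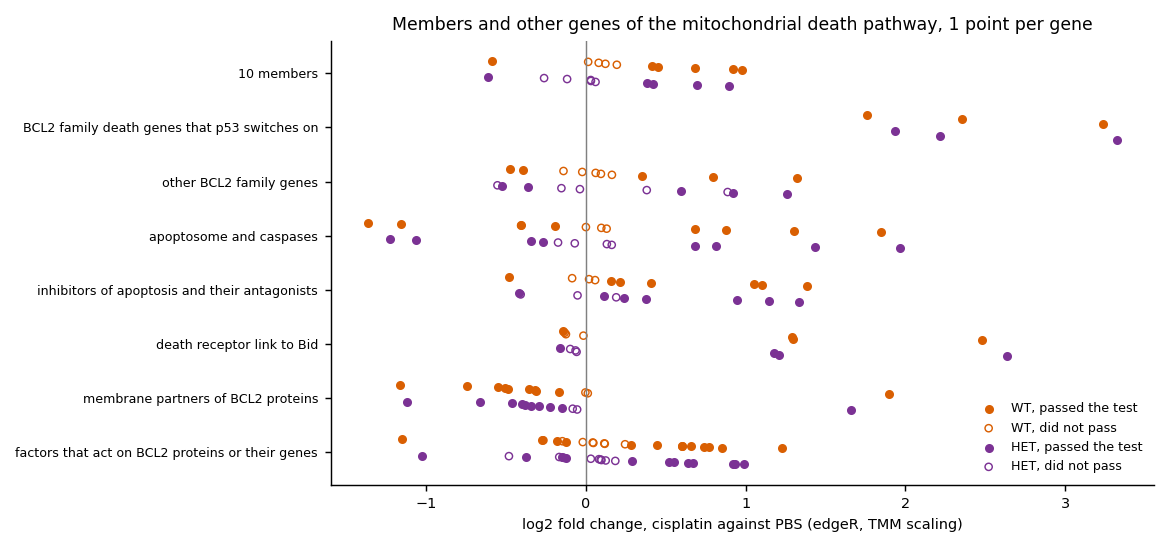
Log2 fold change (cisplatin against PBS, TMM scaling) of the 10 members and of 7 lists of pathway genes, 1 point per gene, WT and HET in separate rows; filled points passed the edgeR test. The 3 p53-switched genes lie to the right of all members, and 9 of 12 membrane partners lie left of 0 as filled points.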

How the data were processed

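Bulk mRNA libraries of 31 kidneys were analysed from the deposited table. The authors deposited expected counts, not normalized and partly fractional (12.5% of values), as read from the values, beside TPM that the authors scaled per length and library; FPKM was not used. The submitters' processing notes name GRCm38 and mm10 as builds and list STAR, featureCounts and fastp without versions; no source states the strand setting. Counts were rounded. edgeR 4.0.16 (R 4.3.3; TMM, filterByExpr by group, quasi-likelihood F test) was fitted once to all libraries with 4 group means, with Benjamini-Hochberg adjustment over 19268 genes, a threshold of 0.05 and a prior count of 0.125 (2 for log2 CPM). Fold changes are log2 values from the deposited counts. Alternatives were DESeq2 1.42.0, limma 3.58.1 on log2(TPM + 1), RLE factors, library totals, other filters and fits of the compared groups. Further ones were 1 run of animal numbers alone or as a covariate, library number as a covariate, and omission of each library in turn. The 5 libraries set apart by Nbl1, picked by their level in these data, were also omitted. WT cisplatin 6 was left out with them in another alternative, chosen after seeing the data. The test was also run on counts simulated from the main fit, with 200 of 19268 genes changed in WT cisplatin. It recovered 34 of 50 changes of 1.3-fold, 47 of 50 of 1.6-fold, 48 of 50 of 2-fold and 49 of 50 of 0.5-fold. There were 15 false calls. Most genes were unchanged in that simulation, so it does not check the choice of scaling. Locations are from GENCODE M21. Named pathway genes are up to 4 per list with the smallest p in WT; for each member, the 2 genes most like it are named. The members, lists and rules were chosen with earlier results of these data known. Exact permutation tests used scipy 1.17.1. P-values measure the spread between animals as numbered in the labels. The counts' depth limits the precision of the lowest member, Bik, at 96 to 239 counts per library.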

Additional observations from a re-analysis of the deposited data

Results flagged for a closer look

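Within the 40 sets made of 1 member in 1 group, 2 had a single kidney set apart from the others by a gap larger than Dixon's 95% limit for 8 samples (0.526 of the group's whole range); chance flags about 1 in 20 such sets. Bid stood at 36.9 CPM in WT cisplatin 3, while the other 7 kidneys ran from 25.5 to 29.7, a gap of 0.632 of the range. Bok stood at 28.8 CPM in WT cisplatin 4, while the other 7 ran from 11.9 to 18.5, a gap of 0.609 of the range. WT cisplatin 4 also had the lowest proximal tubule level of its group, 5.31 on the mean log2 CPM scale, and WT cisplatin 3, at 7.71, the second highest.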

How the results depend on the processing

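The cisplatin calls kept their number and direction with DESeq2, RLE factors, no filter or a stricter one, fits of the compared groups, and either covariate, and fell to 5 in WT with the 1 run of animal numbers taken alone. The count of members called moved with library totals (10 in WT, 8 in HET), beside 14693 and 14392 of all 19268 tested genes. It also moved with limma on log2(TPM + 1) (9 in WT, 8 in HET), beside 14494 and 14304 genes. Without the 5 libraries set apart by Nbl1 it was 6 in WT and 3 in HET, beside 11824 and 10137 of 19405 genes. With WT cisplatin 6 left out too, chosen after seeing the data, it was 5 and 4, beside 12006 and 10248 of 19367 genes. With TPM, Bik in HET changed sign, to 0.30 (limma adjusted p = 0.0255). Leaving out each library in turn gave 5 to 6 members in WT and 5 in HET, 47 to 53 pathway genes in WT and 47 to 56 in HET, and 0 in the genotype and interaction comparisons. The 1 run of animal numbers taken alone also gave 0 in those comparisons, but estimates moved. For genotype under PBS, 7 of 10 members shifted by more than 1 SE of the main fit. For the interaction, 6 of 10 did. For the relation to the proximal tubule, leaving out each kidney gave 0 to 1 relations, Lrp2 alone gave 1 and library totals gave 4, all negative: Bad (-0.92) and Bcl2 (-0.89) in WT, and Bak1 (-0.89) and Bok (-0.87) in HET. The causes were not tested. No paired analysis was possible because the labels give no replicate numbers that groups share. Depth limits Bik most, at 96 to 239 counts per library.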
